A study of Homo sapiens with 2 samples.

Results

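The genes described here are 42 genes of cell adhesion: 11 integrin alpha subunits, 5 integrin beta subunits, 4 ligands, 4 other adhesion receptors, 3 tetraspanins, 5 kinases and scaffolds of focal adhesions, and 10 genes of talin, kindlin and the proteins that tie integrins to actin. They were chosen by name from what the proteins are known to do, but with earlier results of these data known. All 42 were found among the 37122 gene rows of the count table. RNA-seq reads were counted in 1 library of Ramos, a Burkitt's lymphoma cell line of B-cell origin, and in 1 library of Ramos640, a line derived from it that resists rituximab. Rituximab is an antibody against CD20 that kills B cells in part through complement. Ramos640 had been selected in rising doses of rituximab with normal human serum as the source of complement, and was treated again every 21 days with 640 mg/mL of the antibody, as the labels give it (the study's methods give the same figure in micrograms), and 20% normal human serum. Ramos is the unselected parent. The study's methods give a medium with fetal bovine serum for Ramos and name no separate medium for Ramos640. The RNA of 3 passages was pooled into each library, so the 2 values of a gene have no replicate check. Intervals below are exact 95% intervals that cover counting error only, and no p-value is given.

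Integrins are pairs of an alpha and a beta subunit that hold a cell to matrix proteins or to ligands on other cells, and a subunit without its partner is generally kept off the surface. Lymphocytes use the beta2 integrin LFA-1, the alpha4 integrins and the selectins and their ligands to stop on vessel walls and to enter lymphoid tissue. Inside the cell, talin and kindlin bind the beta tail and switch the receptor on, and vinculin, parvin, zyxin and alpha-actinin join it to actin, while FAK, PYK2, p130Cas and paxillin pass signals on.

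The libraries held 38030090 reads (Ramos) and 30871826 reads (Ramos640), and the adhesion genes took 0.237% and 0.218% of them. All 8 B-cell markers examined had reads in both libraries, with a sum of 4924 per 1000000 reads in Ramos and 6179 in Ramos640. These markers did not all differ alike. On normalised reads, CD79B (69495 and 82890 reads) and CD74 (39745 and 47255) were higher in Ramos640 by more than 1.5-fold. PAX5 (4624 and 2039) was lower by more than 1.5-fold, and the other 5 lay within it. CD3D, CD2, CD5 and CD7 of T cells and PF4, PPBP, GP9 and GP1BB of platelets had no reads in either library. Other genes of the same T-cell list had reads: LCK had 7221 and 4572, TRAC 1555 and 583, CD3E 1 and 31, and CD3G 5 and 1. On the platelet list, GP1BA had 55 and 26 reads, THBS1 had 92 and 51, GP6 had 0 and 6, and ITGA2B had 4 and 3. MS4A1, which encodes CD20, had 9654 and 1904 reads. Genes of fibroblasts were present at low level and were lower in Ramos640: 6 of the 6 with at least 10 reads, among them COL1A1 (651 and 192 reads) and FN1 (417 and 180), with a sum of 45.6 and 18.9 per 1000000 reads. LUM and PDGFRB, the other members of that list, had fewer than 10 reads each. Of all genes with at least 10 reads, 17.3% were lower by more than 1.5-fold and 14.6% were higher. Lower genes were not confined to the fibroblast list. Of the 3 epithelial genes with as many reads, KRT8 (18 and 3 reads) and KRT5 (20 and 4) were lower and KRT18 (19 and 11) was within the limit. Of the 2 such monocyte genes, S100A8 (13 and 4) was lower and CSF1R (3 and 9) was higher, with intervals that include 0.

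Among the 42 adhesion genes, every one with at least 10 reads that differed between the lines by more than 1.5-fold was lower in Ramos640. Of the 42, 36 had at least 10 reads in the libraries together, and of these 14 were lower in Ramos640 by more than 1.5-fold (38.9%), none was higher by that much and 22 lay within it. Across all 18778 genes with as many reads, 17.3% were lower and 14.6% were higher by that limit. The median log2 fold change (Ramos640 over Ramos, on normalised read counts plus 1) was -0.29 for the 36 and -0.02 for all genes. The counting interval lay above 0 for 8 of the 36 and below 0 for 19, against 29.6% and 31.6% of all genes.

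The lower genes included both weakly and well expressed ones. Of the 10 tested genes with fewer than 100 reads, 6 were lower and none was higher, and the median log2 fold change of the 10 was -1.15. Among all tested genes with as few reads, 30.0% were lower and 26.9% were higher. Of the 26 with at least 100 reads, 8 were lower (30.8%) and none was higher, with a median of -0.12, while 12.6% of all genes with as many reads were lower and 9.94% were higher. The 8 were ITGA4, ITGA6, ITGAE, ITGAV, CD99, CD82, PTK2 and VCL. The sum of fibroblast genes was lower in the same library as these genes, and its part in the differences was not tested.

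**Figure D1:**
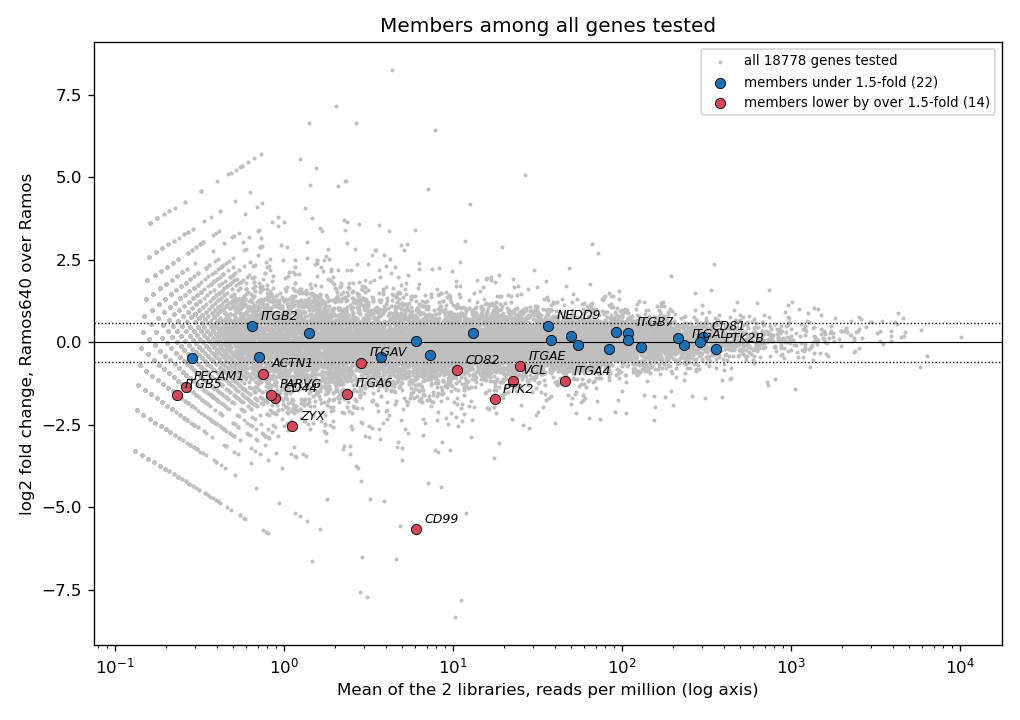
Log2 fold change (Ramos640 over Ramos) against the mean of both libraries in reads per 1000000 (log axis) for all 18778 genes tested (grey) and the 36 adhesion genes tested (coloured, with those lower by more than 1.5-fold in their own colour). The 14 lower genes lie from -0.62 to -5.67, and none of the 36 lies above 0.50.

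Of the 42 adhesion genes, CD99, ITGA4, ITGA6, PTK2 and VCL were lower by more than 2-fold and had at least 100 reads. PTK2 is not printed here, and CD99, ITGA4, ITGA6 and VCL each had a promoter window in the RefSeq table. The bases before their RefSeq starts are printed because these are the stretches where a shared promoter letter pattern would stand, and capitals mark matches to the GC box letters GGGCGG or the CCAAT box letters CCAAT, on either strand. Each window of 250 bases was found by its letters at a single place in GRCh37, the build of the reads, and bases that a GENCODE exon covers were left off (108 for CD99, 184 for ITGA4, 2 for VCL and 0 for ITGA6). The printed bases, all of the plus strand, are chrX:2609086-2609227 for CD99, chr2:182321863-182321928 for ITGA4, chr2:173291814-173292063 for ITGA6 and chr10:75757624-75757871 for VCL, and those of VCL lie inside its GENCODE span, which starts farther out.
CD99: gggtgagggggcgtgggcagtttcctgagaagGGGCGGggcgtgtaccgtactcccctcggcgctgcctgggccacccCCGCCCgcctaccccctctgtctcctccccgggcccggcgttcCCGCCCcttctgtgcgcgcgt
ITGA4: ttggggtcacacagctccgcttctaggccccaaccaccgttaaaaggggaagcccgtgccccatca
ITGA6: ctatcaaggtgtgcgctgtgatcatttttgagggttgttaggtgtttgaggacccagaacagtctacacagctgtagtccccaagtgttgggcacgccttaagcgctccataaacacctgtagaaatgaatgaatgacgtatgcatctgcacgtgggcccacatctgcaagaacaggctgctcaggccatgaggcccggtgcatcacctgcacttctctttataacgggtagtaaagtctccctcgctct
VCL: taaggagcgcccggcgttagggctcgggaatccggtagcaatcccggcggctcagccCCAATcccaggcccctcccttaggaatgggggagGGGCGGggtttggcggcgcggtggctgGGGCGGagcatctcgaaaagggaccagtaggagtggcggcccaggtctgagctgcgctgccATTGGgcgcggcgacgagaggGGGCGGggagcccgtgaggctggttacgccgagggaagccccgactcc
The printed CD99 bases held 3 GC box matches and no CCAAT match, and those of VCL held 3 GC box matches and 2 CCAAT matches. Those of ITGA4 and ITGA6 held neither, so no letter pattern of this pair was shared by the 4 stretches. Over whole windows of 250 bases, 42.3% of the 27305 genes with a window held the GC box letters, as did 7 of the 12 lower adhesion genes that have one and 10 of the 15 within 1.5-fold. The CCAAT letters stood in 33.0% of all windows, in 3 of the 12 (VCL, ACTN1 and PARVG) and in none of the 15. Of 3 further patterns searched on both strands, the TATA box letters TATAAA (11.1% of all windows) and the E-box letters CACGTG (6.49%) each stood in 2 of the 12, ITGA6 and PARVG, and in 1 of the 15, while the cAMP response element TGACGTCA (1.77%) stood in none. The motifs were chosen after the values were seen, and a match describes letters and is not a binding site.

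Among integrin alpha subunits, ITGAL was the most abundant per length and ITGA4 was the most abundant of those that were lower. ITGAL encodes alphaL (CD11a), the alpha subunit of LFA-1. Its reads numbered 9278 in Ramos and 6790 in Ramos640, or 24.7 and 22.3 reads per kilobase of exon and 1000000 library reads (RPKM), a log2 fold change of -0.07 (interval -0.11 to -0.02). It was thus nearly level between the lines, and its log2 fold change was -0.19 once a trend with GC content was removed. ITGA4 encodes alpha4 (CD49d), which pairs with beta1 to bind VCAM1 and fibronectin and with beta7 to bind MADCAM1. ITGA4, at chr2:182321929-182403667 of GRCh37, had 2467 and 838 reads (6.09 and 2.55 RPKM), 2.26-fold lower in Ramos640 with a log2 fold change of -1.18 (interval -1.29 to -1.06). This value was -0.87 once a trend with GC content was removed. The end of ITGA4 overlaps CERKL on the opposite strand, which had 472 and 143 reads and a log2 fold change of -1.34. Whether the counting used strand is not given in the sources used here, so reads in the overlap cannot be told apart, and the ratio of ITGA4 to CERKL reads changed by 0.17 on the log2 scale (interval -0.13 to 0.46).

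ITGAE, ITGA6 and ITGAV were also lower in Ramos640. ITGAE encodes alphaE (CD103), which pairs with beta7 to bind E-cadherin. It had 1206 and 560 reads (4.80 and 2.75 RPKM), 1.65-fold lower with a log2 fold change of -0.72 (interval -0.87 to -0.58). HASPIN, listed as GSG2, lies within the span of ITGAE on the other strand, and it had 1310 and 847 reads with a log2 fold change of -0.25. ITGA6 encodes the laminin receptor subunit alpha6 and had 137 and 35 reads, 2.96-fold lower with a log2 fold change of -1.56 (interval -2.17 to -1.04). ITGAV, the alpha subunit of vitronectin receptors, had 135 and 67 reads, 1.54-fold lower with a log2 fold change of -0.62 (interval -1.07 to -0.20), and was not past the limit once a trend with GC content was removed (-0.24). Both ITGA6 and ITGAV were low next to ITGA4 in either line, at 0.539 and 0.170 RPKM for ITGA6 and 0.184 and 0.112 RPKM for ITGAV.

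The other alpha subunits were low or not detected. ITGA3, a laminin receptor subunit, had 322 and 191 reads with a log2 fold change of -0.37 (interval -0.64 to -0.11), within 1.5-fold. ITGA2 (13 and 7 reads), a collagen receptor subunit, and ITGA5 (32 and 18), the alpha subunit of the classical fibronectin receptor, had intervals that include 0. ITGA1 had 1 read in Ramos and 0 in Ramos640, ITGAX had 0 and 1, and ITGAM had none in either. ITGAM and ITGAX mark myeloid cells and some B cells, and a count of 0 allows up to 3 reads, or 0.0789 per 1000000 reads in Ramos and 0.0972 in Ramos640. In all, 4 of the 8 alpha subunits tested were lower in Ramos640 and none was higher, where 17.3% of all genes tested were lower and 14.6% were higher.

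**Figure D2:**
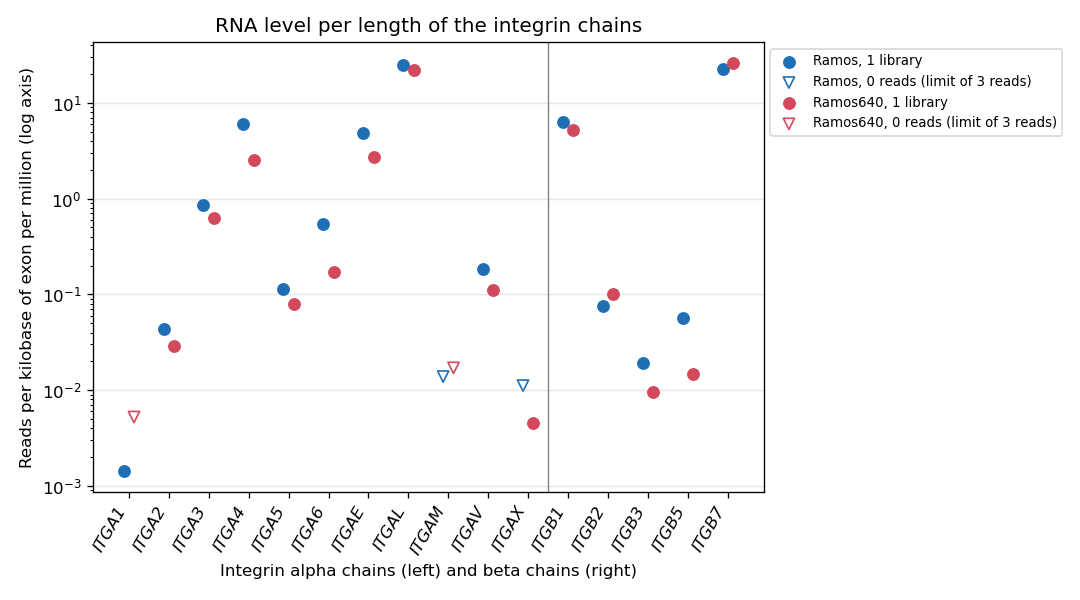
Level of each of the 16 integrin subunits in Ramos and Ramos640, 1 point per library (open triangles: the 3-read limit where a library had 0 reads), in reads per kilobase of exon and 1000000 library reads on a log axis. ITGAL, ITGB7, ITGB1, ITGA4 and ITGAE lie above 2 in both lines, and ITGB2 lies at 0.0756 and 0.102.

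The abundant beta subunits, ITGB7 and ITGB1, stayed within 1.5-fold. ITGB7, the beta partner of alpha4 and alphaE in gut homing, had 3838 and 3600 reads (22.7 and 26.2 RPKM), a log2 fold change of 0.29 (interval 0.22 to 0.35). ITGB1, the partner of most alpha subunits here, had 3502 and 2325 reads (6.32 and 5.17 RPKM), a log2 fold change of -0.21 (interval -0.29 to -0.13) that became 0.09 when the GC trend was removed. Its processed pseudogene ITGB1P1 had 1260 and 675 reads, and the log2 fold change of the sum of both was -0.29. ITGB5, a vitronectin receptor subunit, had only 14 and 3 reads, with a log2 fold change of -1.58 and an interval from -4.28 to just under 0. ITGB3, the beta subunit of the platelet fibrinogen receptor, had 5 and 2 reads, under the limit of 10. The study's antibody array listed beta3 and FAK among the proteins whose phosphorylation differed in Ramos640, most of which were up-regulated. The direction for beta3 and FAK alone was not looked up, and these protein data were not analysed here.

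ITGB2, the beta2 partner that alphaL needs to form LFA-1, was nearly without reads in both lines. Ramos held 21 reads of it and Ramos640 held 23, at 0.0756 and 0.102 RPKM, with a log2 fold change of 0.49 and an interval that includes 0 (-0.41 to 1.44). Per length, ITGAL stood 327-fold above ITGB2 in Ramos and 218-fold above it in Ramos640, and the change of this ratio (-0.58 on the log2 scale) had an interval of -1.44 to 0.27. The gap between these partners was thus present in the parent line too, and a change of it was not detectable at this depth. ITGAM and ITGAX, which encode other partners of beta2, held 1 read between them.

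Ratios of partner subunits shifted away from alpha4 and alphaE. Per length, ITGA4 stood at 0.963 of ITGB1 in Ramos and at 0.493 in Ramos640, and the log2 change of this ratio was -0.97 (interval -1.10 to -0.83). Against ITGB7 the ITGA4 level went from 0.269 to 0.0972, a log2 change of -1.47 (interval -1.60 to -1.33). ITGAE against ITGB7 went from 0.212 to 0.105, a log2 change of -1.01 (interval -1.17 to -0.86). ITGB7 was above both of its alpha partners in each line, and by more in Ramos640. For ITGA6 against ITGB1 the log2 change was -1.38 (interval -1.92 to -0.84), while that of ITGAV against ITGB1 was -0.42, with an interval that just includes 0. A ratio within a library does not depend on the scaling of the libraries. It can still carry the trend with GC content, and these ratios were not computed with that trend removed. On the log2 scale the trend was -0.31 for ITGA4, -0.30 for ITGB1, 0.14 for ITGAE and 0.18 for ITGB7.

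**Figure D3:**
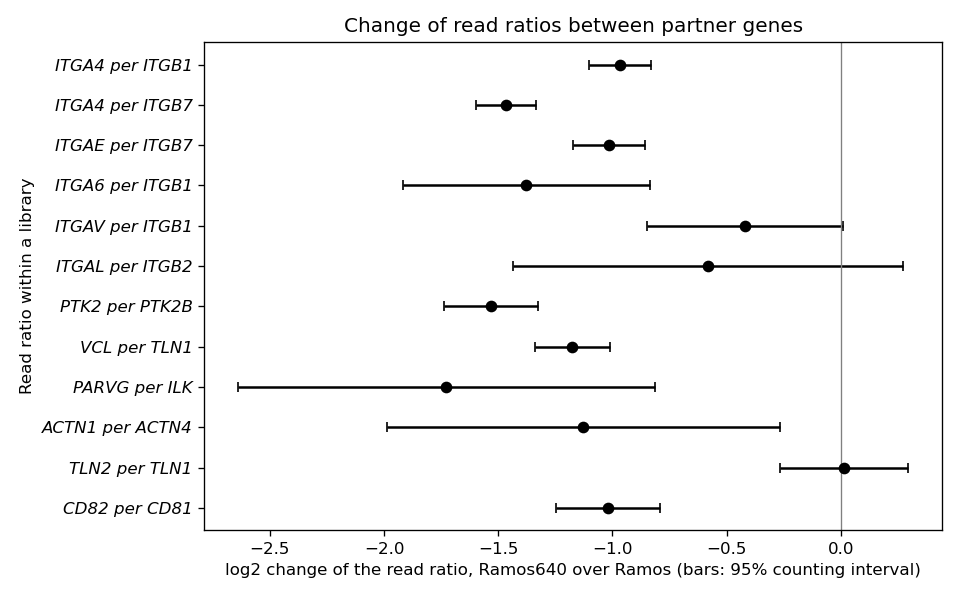
Log2 change (Ramos640 over Ramos) of the read ratio of pairs of adhesion genes that work together or belong to the same family, with 95% intervals of counting error. ITGA4 to ITGB7 lies at -1.47 and PTK2 to PTK2B at -1.53, while the intervals of TLN2 to TLN1, ITGAL to ITGB2 and ITGAV to ITGB1 include 0.

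The ligands on the B-cell side differed little. ICAM1, ICAM2 and ICAM3 are ligands of LFA-1, and CD58 is the ligand of CD2 on T cells. ICAM2 had 3217 and 3083 reads (26.1 and 30.8 RPKM) with a log2 fold change of 0.32 (interval 0.25 to 0.39), and it was the most abundant of the 4 per length. ICAM1 had 2216 and 1602 reads, or 16.9 and 15.0 RPKM, with a log2 fold change of -0.09 (interval -0.18 to 0.01), or -0.23 with the GC trend removed. ICAM3 had 1833 and 1596 reads with a log2 fold change of 0.18 (interval 0.08 to 0.28), which became -0.03 with the GC trend removed. CD58 had 50 and 47 reads, at 0.737 and 0.853 RPKM, and its interval of -0.31 to 0.90 includes 0. None of the 4 passed 1.5-fold in either direction.

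CD99 showed the largest difference of the 36 genes. It encodes a surface glycoprotein that takes part in leukocyte adhesion and passage through vessel walls. CD99 had 454 reads in Ramos and 6 in Ramos640, or 2.46 and 0.0400 RPKM. That is 50.8-fold lower (interval 26.5 to 159), a log2 fold change of -5.67. The gene lies in the pseudoautosomal region shared by the X and Y chromosomes, at chrX:2609228-2659350 of GRCh37. Its pseudogene CD99P1, just before it, had 169 and 133 reads (log2 fold change 0.04), and CD99L2, a related gene farther along the X chromosome, had 670 and 606 (0.24). The difference was thus not shared by these relatives, and the ratio of CD99 to CD99P1 reads changed by -5.90 on the log2 scale (interval -7.10 to -4.69). With reads of both summed, which would hold if they could not be told apart, 623 and 139 reads remained, a log2 fold change of -1.78.

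Most genes around CD99 were not lower along with it. The 3 protein-coding genes with at least 100 reads on each side had a median log2 fold change of 0.13, with a range from -0.60 to 0.36. Among them, AKAP17A, DHRSX and ZBED1 of the same pseudoautosomal region had 0.13, 0.26 and 0.36, and HDHD1 and PRKX beyond it had 0.13 and -0.04. NLGN4X, also beyond it, had 1119 and 567 reads and was lower by more than 1.5-fold, with a log2 fold change of -0.60 (interval -0.75 to -0.45). The neighbours were chosen after the value of CD99 was seen. The same count around other genes gave medians of 0.00 for VCL, 0.09 for PTK2, -0.04 for ITGA6 and 0.42 for CD82, and -0.53 for ITGA4. The neighbours of ITGA4 include the overlapping CERKL. SSFA2 (-0.67) and DNAJC10 (-0.70), which do not overlap ITGA4, were also lower by more than 1.5-fold. ZNF385B (-0.39), UBE2E3 (-0.37) and CWC22 (0.02) were within it.

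Of the other receptors, CD44 and PECAM1 were lower and SELPLG was within 1.5-fold. CD44, the receptor for hyaluronan, had 53 and 12 reads, 3.23-fold lower with a log2 fold change of -1.69 (interval -2.80 to -0.84). PECAM1 (CD31), a receptor of endothelial cells, platelets and leukocytes, had 15 and 4 reads with a log2 fold change of -1.35, and its interval of -3.58 to 0.12 includes 0. SELPLG encodes PSGL-1, the ligand that selectins bind on leukocytes. It had 462 and 437 reads (4.32 and 5.04 RPKM), with a log2 fold change of 0.30 (interval 0.11 to 0.49). CD99 and SELPLG had near-equal reads in Ramos and were far apart in Ramos640. Of the 8 endothelial markers examined, CDH5, VWF, TEK, KDR, TIE1 and EMCN had no reads in either line and CLDN5 had 0 and 1. ENG, which encodes the TGF-beta co-receptor endoglin, had 88 and 24 reads with a log2 fold change of -1.46, lower in the same library as PECAM1 and CD44, and its part in their difference was not tested.

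The vascular selectins and the alpha4 ligand are not among the 42 genes and were read from the list of 90 other adhesion genes. SELE, which encodes the selectin of endothelial cells, had 3 and 0 reads and SELP, which encodes the selectin of platelets and endothelium, had none. VCAM1, the ligand of alpha4 beta1 on vessel walls, had none either.

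Tetraspanins organise integrins and other proteins in the membrane. CD81 had 11170 and 9659 reads (36.8 and 39.2 RPKM), with a log2 fold change of 0.17 (interval 0.13 to 0.21) that became 0 to the second decimal with the GC trend removed. CD82 had 530 and 226 reads (3.45 and 1.81 RPKM), 1.80-fold lower with a log2 fold change of -0.85 (interval -1.08 to -0.62). The ratio of CD82 to CD81 reads changed by -1.02 on the log2 scale (interval -1.25 to -0.79). CD9 had 9 reads in Ramos and 0 in Ramos640, under the limit of 10 reads. Other tetraspanins moved both ways: CD53, a leukocyte tetraspanin, had 12416 and 4318 reads (log2 fold change -1.14), and CD37, a tetraspanin of mature B cells, had 2927 and 3528 (0.65).

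Of the focal adhesion kinases, PTK2 was lower in Ramos640 and PTK2B was not past 1.5-fold. PTK2 encodes FAK, the kinase recruited to clustered integrins, and PTK2B encodes its relative PYK2, which prevails in blood cells. PTK2 had 1045 and 242 reads (2.0 and 0.570 RPKM), 3.31-fold lower with a log2 fold change of -1.73 (interval -1.94 to -1.53). PTK2B had 15059 and 10091 reads (50.4 and 41.6 RPKM), with a log2 fold change of -0.20 (interval -0.23 to -0.16), or -0.35 with the GC trend removed. PYK2 transcript thus exceeded FAK transcript in both lines, by 25.2-fold per length in Ramos and 72.9-fold in Ramos640. The ratio of PTK2 to PTK2B reads changed by -1.53 on the log2 scale (interval -1.74 to -1.33).

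The scaffolds that FAK and PYK2 act on stayed within 1.5-fold. NEDD9, the lymphocyte member of the p130Cas family, had 1193 and 1294 reads (3.03 and 4.05 RPKM), and its log2 fold change of 0.50 (interval 0.38 to 0.61) was the highest of the 36 genes. BCAR1, which encodes p130Cas, had 169 and 95 reads with a log2 fold change of -0.45 (interval -0.83 to -0.08), and it passed the limit with the GC trend removed (-0.66). NEDD9 stood 6.27-fold above BCAR1 per length in Ramos and 12.1-fold in Ramos640, a log2 change of the ratio of 0.95 (interval 0.57 to 1.33). PXN, which encodes paxillin, had 1439 and 1172 reads (5.07 and 5.09 RPKM), with an interval of -0.03 to 0.20 that includes 0.

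Talin 1, kindlin-3 and ILK, which bind the beta tail or the complex on it, were abundant and nearly level before the GC trend was removed. TLN1 had 11212 and 8729 reads (29.7 and 28.5 RPKM), with an interval of -0.02 to 0.06 around a log2 fold change of 0.02. That value was -0.16 with the GC trend removed. FERMT3, the kindlin of blood cells, had 5316 and 3672 reads (12.0 and 10.2 RPKM), with a log2 fold change of -0.15 (interval -0.21 to -0.09). For FERMT3 the value was -0.35 with the GC trend removed. ILK had 4142 and 3360 reads (31.3 and 31.2 RPKM), with a log2 fold change of 0.08 (interval 0.01 to 0.15) that changed sign with total-count scaling or with the GC trend removed. TLN1, FERMT3 and ILK were each within 1.5-fold. The wider list of genes that switch integrins on or off, given below, held genes past that limit in both directions. TLN2 had 235 and 185 reads, with a log2 fold change of 0.04 (interval -0.25 to 0.32).

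Transcripts of several proteins farther along the path to actin were lower in Ramos640. VCL encodes vinculin, which binds talin under load. It had 1218 and 420 reads (3.21 and 1.36 RPKM), 2.22-fold lower with a log2 fold change of -1.15 (interval -1.32 to -0.99), at chr10:75754951-75881121 of GRCh37. AP3M1 overlaps its end on the other strand and had 2767 and 1880 reads with a log2 fold change of -0.18. VCL thus differed while its binding partner TLN1 did not by that measure, and the ratio of VCL to TLN1 reads changed by -1.17 on the log2 scale (interval -1.34 to -1.01).

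The other lower linkers had few reads. ZYX, which encodes the LIM protein zyxin, had 74 and 9 reads, 5.84-fold lower with a log2 fold change of -2.55 (interval -3.84 to -1.66). PARVG, the parvin of blood cells that binds ILK, had 49 and 12 reads, 2.99-fold lower with a log2 fold change of -1.58 (interval -2.70 to -0.72). ACTN1 had 39 and 15 reads, 1.94-fold lower with a log2 fold change of -0.96 (interval -1.96 to -0.11). ACTN4, the abundant alpha-actinin of these cells, had 8076 and 6786 reads (34.7 and 35.9 RPKM), with a log2 fold change of 0.13 (interval 0.08 to 0.18) that was -0.05 with the GC trend removed. PARVB, next to PARVG on chromosome 22, had 0 and 7 reads, too few for a call, and its span overlaps SAMM50, which had 2536 and 2257. Of the 9 linkers tested, 4 were lower and none was higher, where 17.3% of all genes tested were lower and 14.6% were higher.

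**Figure D4:**
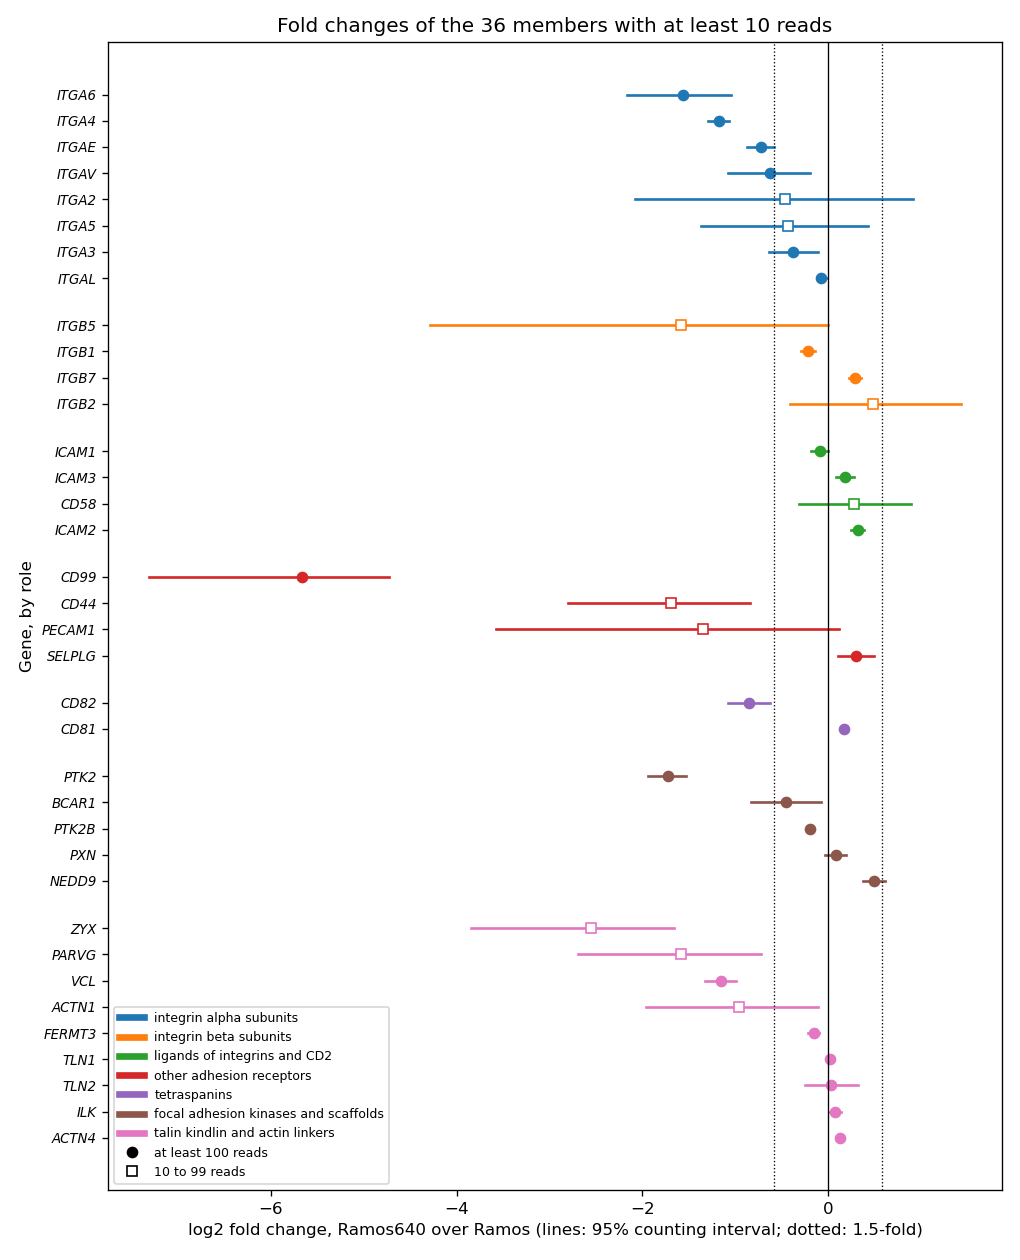
Log2 fold change (Ramos640 over Ramos) of the 36 adhesion genes with at least 10 reads, grouped by role, with exact 95% intervals of counting error, and lines at the 1.5-fold limits. CD99 lies lowest at -5.67, ZYX at -2.55 and PTK2 at -1.73, and NEDD9 lies highest at 0.50.

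In 3 pairs of related genes, PTK2 and PTK2B, CD82 and CD81, and ACTN1 and ACTN4, the less abundant gene was lower in Ramos640 and the other was within 1.5-fold. The ratio of ACTN1 to ACTN4 reads changed by -1.13 on the log2 scale (interval -1.99 to -0.27), and that of PARVG to ILK, its binding partner, by -1.73 (interval -2.64 to -0.81). For TLN2 and TLN1 the interval of the log2 change, -0.26 to 0.30, includes 0. The pairs were chosen after the values were seen.

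The 90 other adhesion genes, listed from the same pathways, included genes that were higher as well as lower. Of the 68 with at least 10 reads, 19 were lower by more than 1.5-fold (27.9%) and 7 were higher (10.3%), with a median log2 fold change of -0.09. Of all genes tested, 17.3% were lower and 14.6% were higher. Of the 54 with at least 100 reads, 10 were lower (18.5%) and 5 were higher (9.26%). Among all genes with as many reads, 12.6% were lower and 9.94% were higher. Among the largest falls of genes with at least 100 reads in the higher library were ICAM5 (209 and 70 reads, log2 fold change -1.19) and CD53. By the same limit, the largest rises were ENAH (433 and 1062 reads, log2 fold change 1.67, interval 1.51 to 1.84), CIB1 (1163 and 1438, 0.69) and CD37. TNS3, just under that limit with 27 and 96 reads, had a larger log2 fold change of 2.16 (interval 1.58 to 2.88). ENAH encodes Mena, an actin regulator that binds zyxin and vinculin, and CIB1 encodes a calcium-binding protein that binds an integrin alpha tail.

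By group, all 4 of the other integrin subunits tested were lower (ITGA7, ITGA10, ITGA11 and ITGB4, each with fewer than 100 reads, where 30.0% of all genes were lower), and 5 of the 10 listed had no reads. The intervals of ITGA11 (-4.19 to 0.13) and ITGB4 (-2.63 to 0.89) include 0. Among 17 genes that switch integrins on or off, 3 were lower and 3 were higher (17.6% each), near the shares of all genes tested (17.3% lower and 14.6% higher). RAP1A and RAP1B encode the small GTPases that bring talin to integrins. RAP1A had 6095 and 6555 reads (log2 fold change 0.49) and RAP1B had 3610 and 1760 (-0.66, past 1.5-fold). APBB1IP, which encodes the RAP1 effector RIAM, had 9550 and 9408 reads (0.36), and LIMS1, which encodes the ILK partner PINCH1, had 1315 and 552 (-0.87). Receptors and ligands were lower in 4 of 6, among them ICAM5, F11R and CD47, with none higher.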

How the data were processed

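Per the labels and the study's methods, RNA of 3 passages of each line was pooled, libraries were made with an Ion total RNA kit, adaptors were removed and reads were aligned to GRCh37 with MapSplice. The counting program, annotation and use of strand are not given in the sources used here. The authors deposited raw read counts per gene for Ramos and Ramos640, with no normalization, and these counts were used as deposited.

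Libraries were scaled by size factors from the median of ratios (1.14 and 0.876), and log2 fold changes took a pseudocount of 1. Genes with at least 10 reads over both libraries were tested (18778 of 37122, while 12889 had no reads). A gene was called higher or lower past a fold of 1.5, the study's fold limit. The study also set a limit on the false discovery rate, which was not applied here. Exact binomial (Clopper-Pearson) 95% intervals cover counting error only; intervals of ratios between genes used the normal approximation on the log scale. Reads are not tagged molecules, and spread between cultures could not be measured. The code was tested on simulated data. Gene spans, exon lengths and GC content came from GENCODE v44lift37 on GRCh37. They matched 28813 of the 37122 rows by current or older symbol, and 84.2% of the rows tested. PECAM1 had no entry. Of the rows, 31 are named by a number only. Promoter windows of 250 bases came from RefSeq on GRCh38.p14, the outermost start for each gene, for 31 of the 42 genes; those printed were located in GRCh37 by exact match of their letters.

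Every adhesion gene was given by its reads, with full statistics for those called and for the most abundant of each role; of the 90 other genes, the 3 largest rises and falls with at least 100 reads in the higher library and the needed partners were named, except that some items are not reported here. The members and lists were chosen with earlier results of these data known, and the pairs, neighbours, matrix genes and motifs after values were seen. Alternatives were TMM factors (edgeR 4.0.16, R 4.3.3, used for the factors alone), total counts, minimums of 1 and 100 reads, pseudocounts of 0.1 and 10, a running median over GC content removed, and a fold limit of 2. Python 3.11.15, numpy 2.4.6, pandas 2.3.3, scipy 1.17.1 and matplotlib 3.10.9 were used.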

Additional observations from a re-analysis of the deposited data

How the results depend on the processing

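No called member changed sign under any alternative, and the median over all members stayed below 0. With the GC trend removed, the medians of the lists of integrin activation (0.02 to -0.12) and of other actin linkers (0.07 to -0.07) changed sign; lists by role were not computed under the other alternatives. Members lower by the fold limit numbered 14 under TMM factors, total counts and a pseudocount of 0.1, and 13 with a pseudocount of 10 (without ITGAV) or the GC trend removed (without ITGAV and, having no GC value, PECAM1, and with BCAR1). They numbered 17 with a minimum of 1 read, 10 with a fold limit of 2, and 8 with a minimum of 100 reads, where fewer genes are tested. The median log2 fold change of the members ranged from -0.37 to -0.12. Members higher by the limit numbered 0 except with a minimum of 1 read, which gave 2 (ITGAX with 0 and 1 reads, PARVB with 0 and 7). Members with a counting interval above 0 numbered 8, 7 with total counts (without ILK), 9 with a minimum of 1 read (with PARVB) and 4 with the GC trend removed (ICAM2, ITGB1, ITGB7 and NEDD9). Of the 90 other genes, 19 were lower and 7 higher. Lower genes numbered 10 with a minimum of 100 reads, 11 with the GC trend removed and 9 with a fold limit of 2, and higher genes numbered 4 with the GC trend removed and 3 with a fold limit of 2. The log2 fold change of members within 1.5-fold changed sign for 3 with total counts (ILK, TLN1 and TLN2) and for 8 with the GC trend removed (ILK, PXN, ITGB1, ICAM3, TLN1, TLN2, CD81 and ACTN4). The cause of the shifts with GC content was not tested. Total counts lowered the median of all genes by 0.08 on the log2 scale.

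The libraries are 1 of each line, so selection cannot be told apart from other differences between these cultures. A count of 0 allows up to 3 reads, and members with fewer than 100 reads carry wide intervals.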

Other observations

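The matrix proteins that integrins bind were read as a further list of 29 genes, set after the values of the adhesion genes had been seen. COL1A1, COL1A2, COL3A1 and FN1 are also among the fibroblast genes above, so the 2 lists are not separate observations. Among the 24 that reached 10 reads, 16 were lower in Ramos640 by more than 1.5-fold, 7 were within it and 1 was higher, where 17.3% of all genes tested were lower and 14.6% were higher, with a median log2 fold change of -1.11. The collagen genes of the list were mostly lower, among them COL1A1 (651 and 192 reads, log2 fold change -1.38) and COL3A1 (166 and 40, -1.65), as was the fibronectin gene FN1 (417 and 180, -0.83). SPP1, which encodes the alpha4 and alphaV ligand osteopontin, had 22 reads in Ramos and 0 in Ramos640. LAMC1, the most counted of the list, had 1880 and 1509 reads with a log2 fold change of 0.06, and LAMA5 had 473 and 228 (-0.67). HSPG2, which encodes the heparan sulfate proteoglycan perlecan, was the gene that was higher, with 596 and 876 reads (0.94). CD59, a complement inhibitor of the cell surface, had 1437 and 1427 reads (0.37).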
